A study of Homo sapiens with 6 samples.

Results

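DDIT4, the 3 sestrins and the core genes of the mTOR complexes were followed in hemogenic endothelium, an endothelial cell type that gives rise to blood cells. The set was chosen by gene symbol and holds 10 genes (DDIT4, SESN1, SESN2, SESN3, DEPTOR, TSC1, TSC2, RPTOR, RICTOR and MTOR) of the 29436 in the count table, and all 10 were found there. Cells of H1, an established line of human embryonic stem cells, were differentiated on AGM-S3 stroma. One group of 3 libraries received alpha lipoic acid (ALA) at 100 µg/ml in the inducing medium and the other group of 3 libraries was left untreated. Both groups were sorted on day 8 for CD34, KDR and CD144 on the surface and for absence of CD43, with 1000 cells in each library, and amplified polyA cDNA was sequenced. All cells came from the H1 line alone, and the labels do not say whether the replicates were separate cultures, so the spread that the p-values measure is that of the libraries and may be technical only.

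mTOR is a protein kinase that works in a pair of complexes. In mTORC1 it is joined by RPTOR (raptor) and promotes protein synthesis and growth when amino acids and growth factors are present; in mTORC2 it is joined by RICTOR and acts on AKT and related kinases. The TSC1 and TSC2 proteins form a complex that switches off RHEB, the small GTPase that activates mTORC1, and DDIT4 (also called REDD1) is a stress-induced protein that restrains mTORC1 through this complex. Sestrins are stress-induced proteins that bind GATOR2 and thereby restrain the signal of amino acids to mTORC1, SESN2 being a leucine sensor, and DEPTOR binds mTOR itself and inhibits it.

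The start regions of the genes that rose most are shown with that of TSC2. DDIT4, SESN2 and SESN3 moved in the same direction. TSC2 is the one member, of those searched, whose window holds the core of a C/EBP-ATF response element. RefSeq promoter windows on GRCh38.p14 ran from 250 bases before to 50 bases after a transcript start. The search covered 9 of the 10 members in 12 windows. No window of DEPTOR, the member that fell, was searched. Each is printed 5′ to 3′ on the strand of its gene, DDIT4 at chr10:72273674-72273973 (plus strand), SESN2 at chr1:28259268-28259567 (plus), SESN3 at chr11:95232426-95232725 (minus) and the first of the TSC2 windows at chr16:2047735-2048034 (plus). Capitals mark matches on either strand to any of 5 motifs.
DDIT4: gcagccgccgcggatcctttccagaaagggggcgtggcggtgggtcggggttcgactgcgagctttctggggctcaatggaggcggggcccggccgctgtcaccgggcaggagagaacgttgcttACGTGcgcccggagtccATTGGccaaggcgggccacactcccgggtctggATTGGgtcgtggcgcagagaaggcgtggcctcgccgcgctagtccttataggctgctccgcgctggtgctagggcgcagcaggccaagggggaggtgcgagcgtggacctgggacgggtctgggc
SESN2: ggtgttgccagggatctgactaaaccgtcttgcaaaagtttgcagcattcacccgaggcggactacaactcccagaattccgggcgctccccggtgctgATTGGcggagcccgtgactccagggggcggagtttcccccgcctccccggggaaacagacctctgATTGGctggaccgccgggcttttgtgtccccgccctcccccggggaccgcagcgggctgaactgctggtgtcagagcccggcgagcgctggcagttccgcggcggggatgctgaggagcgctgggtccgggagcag
SESN3: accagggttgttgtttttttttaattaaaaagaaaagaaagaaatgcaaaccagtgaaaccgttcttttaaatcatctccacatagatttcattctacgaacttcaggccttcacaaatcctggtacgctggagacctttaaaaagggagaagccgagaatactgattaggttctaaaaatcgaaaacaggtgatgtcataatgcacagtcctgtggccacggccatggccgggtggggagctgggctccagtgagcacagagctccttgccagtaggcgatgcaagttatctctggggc
TSC2: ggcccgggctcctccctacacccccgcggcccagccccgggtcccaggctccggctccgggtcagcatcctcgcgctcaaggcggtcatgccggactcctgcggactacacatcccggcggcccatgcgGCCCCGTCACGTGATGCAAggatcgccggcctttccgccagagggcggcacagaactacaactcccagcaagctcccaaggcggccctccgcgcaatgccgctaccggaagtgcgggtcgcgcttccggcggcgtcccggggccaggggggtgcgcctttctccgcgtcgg
The motifs searched on both strands were TGATGNAA (core of the C/EBP-ATF response element), ACGTG (core of the hypoxia response element), TGACNNNGC (core of the antioxidant response element), GTAAACA (forkhead core) and CCAAT. The hypoxia core lay in the DDIT4 window at position -125 from the start and in 3 of the 12 windows in all (DDIT4, TSC2 and RICTOR), against 21.4% of 35116 RefSeq windows. The C/EBP-ATF core lay in 1 window, that of TSC2 at position -110 from the start, where it overlaps a hypoxia core, which also overlaps an antioxidant core; 3.6% of all windows hold this motif. The antioxidant core lay in 2 windows (SESN1 and TSC2, against 13.3% of all), the forkhead core in 0 (3.4% of all) and CCAAT in 6 (34.6% of all). The SESN2 window held a pair of CCAAT matches and no other motif, and the SESN3 window held none of the 5. These matches describe the letters of the windows only.

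Total counts were 31404734 to 41351951 in lipoic acid libraries and 30041494 to 32034433 in untreated libraries. Untreated replicate 2 had the fewest genes with a count, 14668, against 14901 to 15824 in the other libraries. Mitochondrially encoded genes took 5.02%, 4.39% and 4.98% of counts in lipoic acid replicates 1 to 3, against 2.45%, 2.82% and 2.66% in untreated replicates 1 to 3, without overlap. The part of this difference in the results was not tested beyond a fit without these genes, which changed no call among the 10. Even numbers made up 99.13% to 99.34% of the nonzero counts of 4 libraries, those with lipoic acid and untreated replicate 1, while their share was 52.01% in untreated replicate 2 and 51.97% in untreated replicate 3. A fit without untreated replicate 1 therefore sets groups against each other that also differ in this property. Over all 13780 genes tested by the edgeR quasi-likelihood test, 47.4% were called at a Benjamini-Hochberg adjusted p under 0.05, of which those that rose with lipoic acid were 24.2% and those that fell 23.3% of the tested genes, and the groups did not overlap in 59.1%. The 10 endothelial markers had a summed level of 10200 to 10500 CPM (counts scaled to library size, here after TMM scaling) in lipoic acid and 11700 to 11800 CPM in untreated libraries, with 2 higher and 5 lower, while SPN, which encodes CD43, had no count.

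Among the 10 genes, 6 rose with lipoic acid (DDIT4, SESN2, SESN3, TSC1, RICTOR and MTOR), 1 fell (DEPTOR) and 3 did not pass (SESN1, TSC2 and RPTOR). All 10 passed the filter on low counts. The rises ranged from 2.35-fold for DDIT4 to 1.19-fold for MTOR, and the median log2 fold change of the 10 was 0.43, against -0.01 over all tested genes. The groups did not overlap for 8 of the 10. Against backgrounds of 24.2% rises and 59.1% without overlap, these counts are a description of 10 chosen genes.

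**Figure D1:**
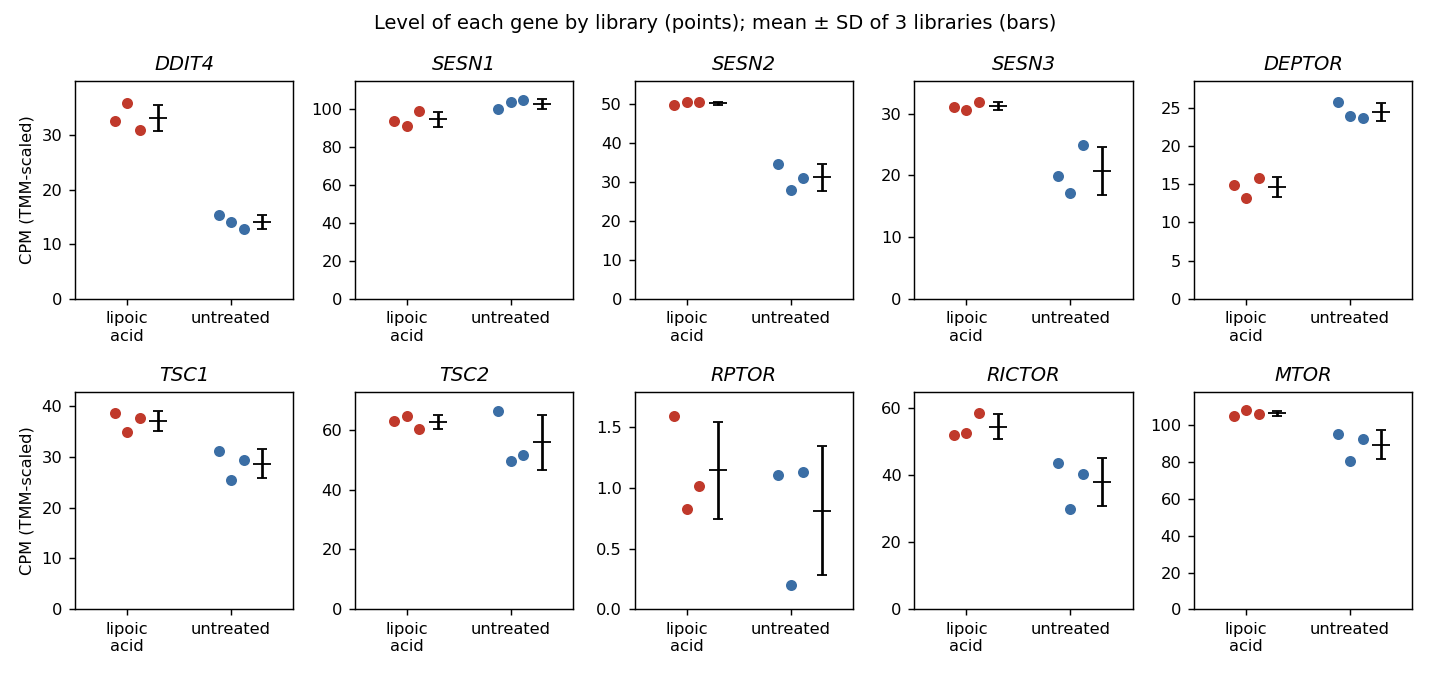
Level of each of the 10 genes in CPM on TMM-scaled library sizes (vertical axes, each starting at 0), with 1 point for each of the 3 lipoic acid libraries (left, red) and the 3 untreated libraries (right, blue) and bars for mean ± SD. DDIT4, SESN2, SESN3, TSC1, RICTOR and MTOR lie higher in every lipoic acid library, SESN1 and DEPTOR lower, and TSC2 and RPTOR overlap.

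DDIT4 showed the largest change of the set. The gene (ENSG00000168209.4, chromosome 10, 72273920 to 72276036, plus strand, GRCh38) had 32.6, 35.8 and 31.0 CPM in lipoic acid replicates 1 to 3, against 15.4, 14.1 and 12.8 CPM in untreated replicates 1 to 3. The lowest lipoic acid library was thus above the highest untreated library, by more than the spread within either group. Means were 33.1 ± 2.46 CPM with lipoic acid and 14.1 ± 1.32 CPM in untreated cells (SD, n = 3 each), a log2 fold change of 1.23 with a standard error of 0.10 (95% interval 1.00 to 1.46, adjusted p = 1.6e-05). DDIT4-AS1, an antisense gene that is not analysed here, covers 41.2% of the exonic length of DDIT4, and whether the counting used strand was not given, so counts from the antisense partner cannot be told apart from those of DDIT4. DDIT4L, the paralogue of DDIT4 that also restrains mTORC1, went the other way. DDIT4L had 31.2, 33.5 and 35.2 CPM with lipoic acid, against 53.7, 50.2 and 58.9 CPM in untreated cells, and fell 1.63-fold (log2 fold change -0.70, standard error 0.083, adjusted p = 0.000123). Every untreated library therefore had a higher CPM value for DDIT4L than for DDIT4, whereas lipoic acid libraries were at 31.0 to 35.8 CPM for DDIT4 and 31.2 to 35.2 CPM for DDIT4L. These values are not corrected for exonic length, which is 2058 bases for DDIT4 and 2994 bases for DDIT4L. They therefore do not rank the 2 genes by level.

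The sestrins did not move as one group. SESN2 (chromosome 1, 28259527 to 28282491, plus strand) had 49.8, 50.5 and 50.4 CPM with lipoic acid, against 34.6, 27.9 and 30.9 CPM in untreated cells. The lipoic acid libraries were nearly equal to each other and all above the untreated ones. SESN2 rose 1.61-fold (log2 fold change 0.69, standard error 0.087, adjusted p = 0.000176). SESN3 (chromosome 11, 95165513 to 95232541, minus strand), a sestrin known as a target of FOXO factors, had 31.1, 30.6 and 31.9 CPM with lipoic acid, against 19.9, 17.2 and 24.9 CPM in untreated cells, where replicate 3 was the highest. It rose 1.51-fold (log2 fold change 0.60, standard error 0.12, adjusted p = 0.00311). Without untreated replicate 2, the lowest library, its log2 fold change was 0.48 (adjusted p = 0.00226). SESN1 (chromosome 6, 108986437 to 109094819, minus strand), another sestrin, had 93.8, 91.0 and 99.1 CPM with lipoic acid, against 100, 104 and 105 CPM in untreated cells. The groups of SESN1 did not overlap, the lipoic acid libraries being lower, but the difference did not pass (log2 fold change -0.12, 95% interval -0.26 to 0.02, adjusted p = 0.134). With a trend on GC content and exonic length removed from each library SESN1 was called lower (log2 fold change -0.26, adjusted p = 0.0131), and over the 17 other settings its adjusted p ran from 0.0131 to 0.476.

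Ratios within a library do not depend on how libraries are scaled to each other. The log2 ratio of SESN2 to SESN1 counts was -0.92, -0.85 and -0.97 in lipoic acid libraries, against -1.53, -1.89 and -1.77 in untreated libraries, a difference of 0.82. That of SESN3 to SESN1 was -1.59, -1.57 and -1.64 with lipoic acid, against -2.33, -2.59 and -2.08 in untreated libraries, a difference of 0.73. Both ratios were higher in every lipoic acid library than in any untreated library. An exact two-sided permutation test gave p = 0.1 for each, the smallest that 3 libraries against 3 allow, and 0.2 after Benjamini-Hochberg adjustment over the 4 ratios compared. The log2 ratio of TSC1 to TSC2 averaged -0.76 ± 0.12 with lipoic acid and -0.96 ± 0.14 in untreated libraries (SD, n = 3 each, exact permutation p = 0.2, adjusted 0.267) and its groups overlapped.

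**Figure D2:**
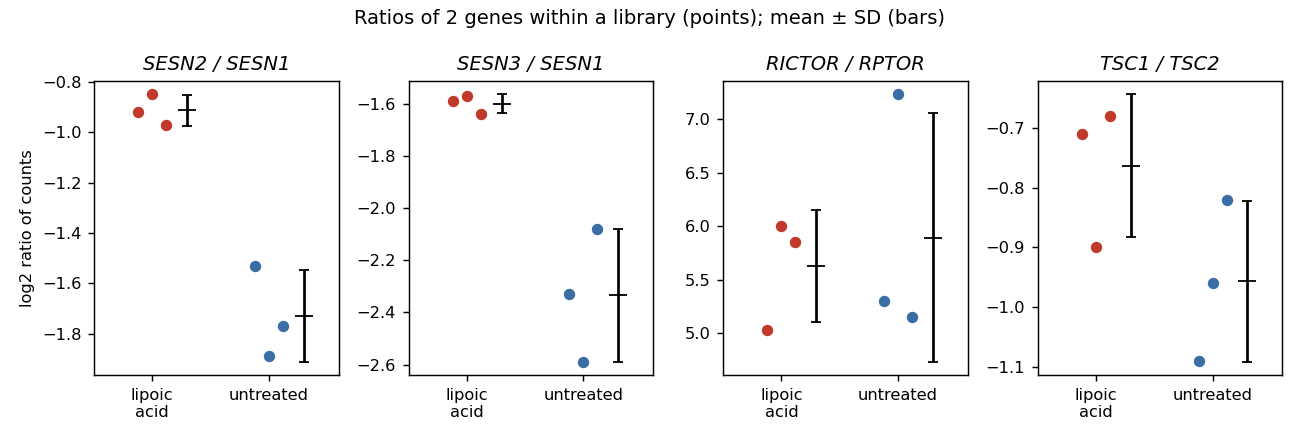
Log2 ratio of the counts of 2 genes within a library (vertical axes), with points for the 3 lipoic acid libraries (left, red) and the 3 untreated libraries (right, blue) and bars for mean ± SD. The ratios of SESN2 and of SESN3 to SESN1 are separated between groups by 0.82 and 0.73 on average, and those of RICTOR to RPTOR and TSC1 to TSC2 overlap.

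The TSC genes changed little. TSC1 (chromosome 9, 132891348 to 132946874, minus strand), which encodes hamartin, the partner that stabilises TSC2, had 38.5, 34.8 and 37.6 CPM with lipoic acid, against 31.1, 25.4 and 29.4 CPM in untreated cells. Every lipoic acid library was above every untreated one, with the lowest untreated value in replicate 2. Without that library the log2 fold change of TSC1 was 0.29 (adjusted p = 0.0105). TSC1 rose 1.29-fold (log2 fold change 0.37, standard error 0.093, adjusted p = 0.00844), but it was not called within the 4 libraries of even counts, where untreated replicate 1 is the single control and its spread is taken from the other group (log2 fold change 0.25, adjusted p = 0.0728), and its log2 fold change was 0.22 with the trend on GC content and length removed (adjusted p = 0.0377). TSC2 (chromosome 16, 2047465 to 2089487, plus strand), which encodes tuberin, the part that acts on RHEB, had 63.0, 64.6 and 60.1 CPM with lipoic acid, against 66.3, 49.4 and 51.7 CPM in untreated cells. Untreated replicate 1 was the highest of all 6 libraries, so the groups overlapped, and TSC2 did not pass (log2 fold change 0.16, 95% interval -0.07 to 0.40, adjusted p = 0.221). With untreated replicate 1 left out, so that even counts coincide with lipoic acid, TSC2 was called higher (0.32, adjusted p = 0.008), and within the 4 libraries of even counts its direction turned (-0.08, adjusted p = 0.482).

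The kinase and the mTORC2 scaffold rose by small amounts. MTOR (chromosome 1, 11106535 to 11262507, minus strand) had 105, 108 and 106 CPM with lipoic acid, against 95.1, 80.5 and 92.5 CPM in untreated cells. It was higher in every lipoic acid library, and untreated replicate 2 was the lowest. MTOR rose 1.19-fold (log2 fold change 0.25, standard error 0.073, adjusted p = 0.0173). This call was lost without lipoic acid replicate 2 (log2 fold change 0.25, adjusted p = 0.0502), within the 4 even-count libraries (0.16, adjusted p = 0.115) and after removal of the trend on GC content and length (0.13, adjusted p = 0.134). RICTOR (chromosome 5, 38937919 to 39074408, minus strand) had 52.0, 52.5 and 58.5 CPM with lipoic acid, against 43.5, 30 and 40.2 CPM in untreated cells. The untreated libraries were all lower and more spread out, with replicate 2 again lowest. RICTOR rose 1.43-fold (log2 fold change 0.52, standard error 0.12, adjusted p = 0.00643), and its log2 fold change was 0.32 where only the 4 even-count libraries were used (adjusted p = 0.0239) and 0.33 after removal of the trend on GC content and length (adjusted p = 0.0117). Without untreated replicate 2 the log2 fold change of RICTOR was 0.38 (adjusted p = 0.00214). RICTOR and SESN3 had the lowest GC content of the 10 genes in the annotation, 36.5% and 37.1%.

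RPTOR, the scaffold of mTORC1, was counted at a far lower level than the kinase it binds. RPTOR (chromosome 17, 80544819 to 80966371, plus strand) had 64, 26 and 42 counts in lipoic acid replicates 1 to 3, against 36, 6 and 34 in untreated replicates 1 to 3, while MTOR had 4204, 3416 and 4396 counts with lipoic acid, against 3090, 2420 and 2781 in untreated replicates. In CPM, RPTOR was at 1.59, 0.823 and 1.02 with lipoic acid, against 1.11, 0.20 and 1.13 in untreated cells. The groups overlapped and untreated replicate 2 was the lowest. The difference did not pass (log2 fold change 0.49, 95% interval -0.81 to 1.80, adjusted p = 0.513), and without untreated replicate 2 it was 0.04. A change of the sizes seen for RICTOR or MTOR lies inside this interval and was not detectable for RPTOR at this depth. The log2 ratio of RICTOR to RPTOR averaged 5.62 ± 0.52 with lipoic acid and 5.89 ± 1.2 in untreated libraries (SD, n = 3 each, exact permutation p = 0.8, adjusted 0.8), and the sign of its difference turned without lipoic acid replicate 1 (0.03) and without untreated replicate 2 (0.40).

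DEPTOR, the inhibitor that binds the kinase, was the one member that fell. DEPTOR (chromosome 8, 119873717 to 120050913, plus strand) had 14.9, 13.2 and 15.8 CPM with lipoic acid, against 25.8, 23.9 and 23.7 CPM in untreated cells. All lipoic acid libraries were below all untreated ones by more than the spread of either group. The fall was 1.67-fold (log2 fold change -0.74, standard error 0.10, adjusted p = 0.000329).

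**Figure D3:**
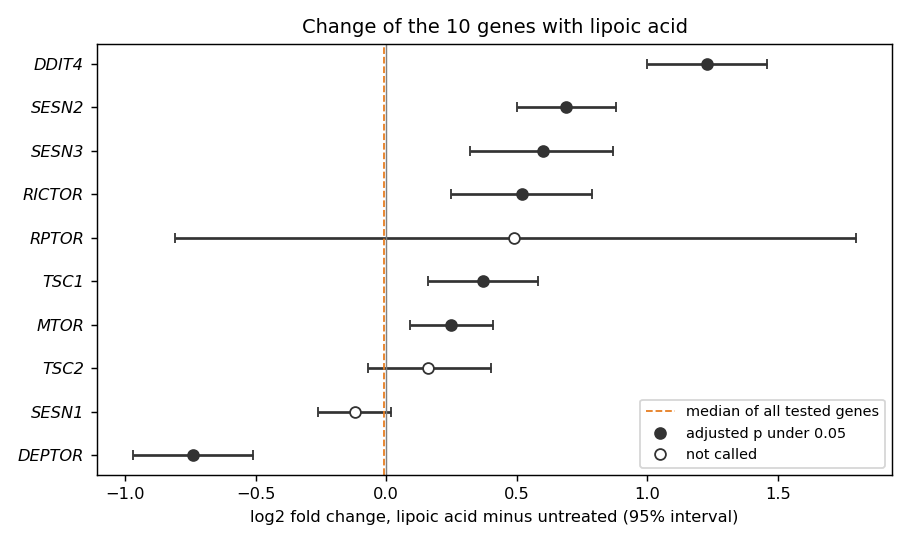
Log2 fold change, lipoic acid minus untreated (horizontal axis), of each of the 10 genes with its 95% interval from the edgeR fit. Filled points are called at an adjusted p under 0.05, and the dashed line is the median of all tested genes at -0.01. DDIT4 lies highest at 1.23, DEPTOR lowest at -0.74, and the interval of RPTOR is the widest.

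Levels were compared between the genes as RPKM, that is CPM per kilobase, on the exonic length of each gene in GENCODE v29. SESN1 was the highest of the 10 in both groups, at 18.5 ± 0.807 with lipoic acid and 20.1 ± 0.501 in untreated cells (SD, n = 3 each), and RPTOR the lowest, at 0.111 ± 0.039 with lipoic acid and 0.0789 ± 0.0515 in untreated cells. DDIT4 ranked 2 with lipoic acid (16.1 ± 1.20), ahead of SESN2 (14.5 ± 0.118), and these values differ by little more than the spread of DDIT4. In untreated cells DDIT4 ranked 5 (6.86 ± 0.642), next to MTOR (7.37 ± 0.642), from which it differed on this length by less than the spread. DEPTOR (9.32 ± 0.443) and SESN2 (9.02 ± 0.982) ranked above both in untreated cells on this length and differed from each other by less than their spread. SESN3 (2.95 ± 0.0582 with lipoic acid, 1.95 ± 0.367 in untreated cells) and TSC1 (2.10 ± 0.110 with lipoic acid, 1.62 ± 0.166 in untreated cells) were the next above RPTOR. The order in the middle depends on the length used. On the longest coding transcript, untreated cells had MTOR at rank 2 (10.3 ± 0.896), above DEPTOR (9.51 ± 0.452) and SESN2 (9.02 ± 0.982), and DDIT4 at rank 6 (8.07 ± 0.756), below MTOR by more than the spread. TSC2 ranked 5 in both groups on that length, while on exonic length it ranked 7 with lipoic acid and 6 in untreated cells.

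Lists of genes used as markers of other cell types were also measured. Beside the counts of calls below, 24.2% of all tested genes rose and 23.3% fell, and some lists had few tested genes. Whether the gated cells themselves express genes of these lists was not tested. The summed epithelial and endoderm markers were higher and the blood markers lower in every lipoic acid library, while the sums of the mesenchymal and erythroid markers overlapped. Of 10 epithelial markers 8 were tested, 6 rose and 1 fell, and their summed level was 463 to 533 CPM with lipoic acid and 298 to 329 CPM in untreated cells, with GRHL2 at 0 in both groups and CLDN6 at 0 in untreated cells. Of 12 endoderm and hepatic markers 10 were tested, 8 rose and 1 fell, at 169 to 240 CPM with lipoic acid and 68.2 to 78.7 CPM in untreated cells, with SERPINA1 at 0 with lipoic acid. All 11 mesenchymal and stromal markers were tested, 1 rose and 6 fell, at 1500 to 2040 CPM with lipoic acid and 1960 to 2590 CPM in untreated cells. Of 10 blood and myeloid markers 4 were tested, 0 rose and 2 fell, at 241 to 267 CPM with lipoic acid and 295 to 312 CPM in untreated cells, with SPN, PTPRC and MPO at 0 in both groups and CD33 at 0 with lipoic acid. Of 9 erythroid markers 2 were tested and 1 rose, at 71.1 to 94.9 CPM with lipoic acid and 74.6 to 87.3 CPM in untreated cells, with HBE1 and HBG1 at 0 in both groups, HBG2 and KLF1 at 0 with lipoic acid, and GYPB, HBZ and ALAS2 at 0 in untreated cells. Their part in the results was not tested, and in sorted bulk samples fewer cells of a type and less RNA per cell cannot be told apart.

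The remaining genes of the pathway showed no common direction. Of 77 other pathway genes with counts 75 were tested, of which 21 rose (28%), 13 fell (17.3%) and 41 did not pass. Their median log2 fold change was -0.03, against 24.2% rises, 23.3% falls and a median of -0.01 over all tested genes. EIF4EBP3 and NDRG1 were too low to be tested, and the arginine and S-adenosylmethionine sensors CASTOR1, CASTOR2 and SAMTOR were not analysed here. The same shares over all tested genes, 24.2% rises and 23.3% falls, stand beside the count of each list below. The values given below are log2 fold changes unless named otherwise.

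Partners in the complexes split. Of 8 tested partners 3 rose, 1 fell and 4 did not pass. MAPKAP1, the SIN1 subunit of mTORC2, rose by 0.28 (adjusted p = 0.00434), and TELO2 (0.70, adjusted p = 0.00825) and TTI1 (0.36, adjusted p = 0.00842), chaperone partners that help assemble mTOR and related kinases, rose as well. TELO2 had 12.5, 10.4 and 10.4 CPM with lipoic acid, against 8.37, 5.99 and 6.22 CPM in untreated cells, with no overlap. TELO2 (0.41, adjusted p = 0.101) and TTI1 (0.26, adjusted p = 0.0977) were not called in the 4 even-count libraries, nor MAPKAP1 (0.15, adjusted p = 0.109) after removal of the trend on GC content and length. MLST8, the subunit of both complexes, did not pass (-0.20, adjusted p = 0.141). AKT1S1, the inhibitory mTORC1 subunit PRAS40, was called lower (-0.30, adjusted p = 0.0359), a call lost in 5 of the 6 omissions of 1 library, namely without any lipoic acid replicate or untreated replicates 1 or 2 (adjusted p 0.0676 to 0.135). It was also lost with DESeq2 (adjusted p = 0.0555), with limma voom (-0.22, adjusted p = 0.0635) and after removal of the trend on GC content and length (-0.23, adjusted p = 0.119). RHEB, the GTPase held off by the TSC complex, did not pass (-0.11, adjusted p = 0.342). TBC1D7, the third subunit of the TSC complex, fell, with 27.4, 27.4 and 26.5 CPM with lipoic acid, against 38.1, 40.7 and 42.4 CPM in untreated cells (-0.58, adjusted p = 0.000225). Within the TSC complex, TSC1 was thus called higher, TBC1D7 lower and TSC2 not called.

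The RAG GTPases, which carry the amino acid signal to mTORC1 at the lysosome, and their Ragulator anchor gave 2 rises and 2 falls among 10, with 6 not passing. RRAGD rose (0.73, adjusted p = 6.11e-05) and RRAGC rose (0.44, adjusted p = 0.00114), while RRAGA fell (-0.55, adjusted p = 0.000194). RRAGA and RRAGB proteins pair with RRAGC or RRAGD. RRAGA had 126, 128 and 125 CPM with lipoic acid, against 174, 205 and 178 CPM in untreated cells, and RRAGD had 49.8, 56.7 and 56.5 CPM with lipoic acid, against 33.4, 32.3 and 32.7 CPM in untreated cells. Both genes were without overlap between the groups, in opposite directions. Another annotated gene on the same strand covers 22.9% of the exonic length of RRAGC. LAMTOR4 was called lower (-0.28, adjusted p = 0.0267), a call lost without lipoic acid replicates 2 or 3 or untreated replicate 2 (adjusted p 0.0569 to 0.119), in the 4 even-count libraries (-0.19, adjusted p = 0.176) and after removal of the trend on GC content and length (-0.14, adjusted p = 0.245).

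Upstream of the RAGs, GATOR1 restrains them and KICSTOR anchors it, while GATOR2 opposes GATOR1 and is the partner the sestrins bind. Of 7 GATOR1 and KICSTOR genes 0 rose, 2 fell and 5 did not pass, with falls of ITFG2 (-0.58, adjusted p = 0.00194) and NPRL2 (-0.36, adjusted p = 0.00589). Of 5 GATOR2 genes 2 rose, 0 fell and 3 did not pass, with rises of MIOS (0.41, adjusted p = 0.00511) and SEH1L (0.31, adjusted p = 0.00713). The falls were 28.6% of the GATOR1 and KICSTOR list, beside 23.3% over all tested genes. The rises were 40% of the GATOR2 list, beside 24.2%, and both lists are short. MIOS (0.26) and SEH1L (0.13) lost their calls after removal of the trend on GC content and length. Folliculin and its partners FNIP1 and FNIP2 did not pass.

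The called genes of the pathways that feed into the TSC complex differed by less than 2-fold. In the AMPK and LKB1 list, the energy-sensing arm, 2 of 9 rose and 3 fell: the regulatory subunits PRKAB2 (0.37, adjusted p = 0.00221) and PRKAB1 (0.26, adjusted p = 0.00591) rose, and PRKAG1 (-0.36, adjusted p = 0.00749) and the catalytic subunits PRKAA2 (-0.75, adjusted p = 0.00817) and PRKAA1 (-0.19, adjusted p = 0.0157) fell. In the 4 even-count libraries, with their single control, PRKAG1 (-0.24, adjusted p = 0.103), PRKAA2 (-0.66, adjusted p = 0.0667) and PRKAA1 (-0.16, adjusted p = 0.0805) kept their direction but were not called. PRKAA1 also lost its call without any lipoic acid replicate or untreated replicate 3 (0.0504 to 0.077). PRKAA2 was at a low level, with means of 3.85 CPM with lipoic acid and 6.47 CPM in untreated cells. Those of PRKAA1 were 153 CPM with lipoic acid and 174 CPM in untreated cells. PRKAB1 lost its call after removal of the trend on GC content and length (0.13, adjusted p = 0.166). In the PI3K and AKT list, the growth factor arm, 4 of 10 rose and 0 fell. Among those that rose were the kinase gene AKT2 (0.51, adjusted p = 0.0228), PIK3CB (0.28, adjusted p = 0.0303) and the PI3K catalytic subunit PIK3CA (0.21, adjusted p = 0.042), the last with 35.8% of its exonic length under a gene on the other strand. AKT2 lost its call without lipoic acid replicates 1 or 3 or untreated replicate 3 (adjusted p 0.0587 to 0.0725), PIK3CB without lipoic acid replicates 1 or 3 or untreated replicates 2 or 3 (0.0552 to 0.124), and PIK3CA without lipoic acid replicates 2 or 3 or untreated replicates 1 or 2 (0.079 to 0.111). In the 4 even-count libraries AKT2 (0.20, adjusted p = 0.199), PIK3CB (0.17, adjusted p = 0.252) and PIK3CA (0.24, adjusted p = 0.0536) were not called, and PIK3CA was not called with limma voom (0.15, adjusted p = 0.0757). PIK3CB (0.10) and PIK3CA (0.02) also lost their calls after removal of the trend on GC content and length.

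Among substrates of mTORC1 and its translation arm 6 of 16 tested genes rose and 3 fell, and the other 7 were not called, the median being 0.00. LPIN1, the phosphatidate phosphatase lipin 1 that mTORC1 phosphorylates, changed most, with 54.9, 57.3 and 58.2 CPM with lipoic acid, against 24.3, 17.8 and 24.8 CPM in untreated cells (2.55-fold, adjusted p = 1.92e-05). RPS6KB1, the S6 kinase gene, rose (0.50, adjusted p = 0.000231), as did ATG13 (0.44, adjusted p = 0.000874), a partner of the autophagy kinase ULK1. GRB10, an adaptor that dampens insulin signalling, fell (-0.36, adjusted p = 0.000277). EIF4E, the cap-binding factor held by 4E-BP1, fell (-0.45, adjusted p = 0.00264), as did TFEB, a factor of lysosome genes (-0.71, adjusted p = 0.0217). TFEB was at a low level, with means of 3.05 CPM with lipoic acid and 4.99 CPM in untreated cells. The TFEB call was lost without lipoic acid replicates 1 or 3 or untreated replicates 1 or 3 (adjusted p 0.0562 to 0.0823), and in the 4 even-count libraries (-0.79, adjusted p = 0.0561). ULK1 (0.28, adjusted p = 0.0305) and EIF4EBP1 (0.20, adjusted p = 0.0451), which encodes the translation inhibitor 4E-BP1, were near the threshold. ULK1 lost its call without any lipoic acid replicate or without untreated replicate 3 (adjusted p 0.0521 to 0.104) and in the 4 even-count libraries (0.13, adjusted p = 0.343). EIF4EBP1 lost its call without any lipoic acid replicate or untreated replicates 1 or 3 (0.0507 to 0.147). Of the 3 tested mTORC2 substrates 2 rose. SGK1, a kinase activated by mTORC2, had 669, 744 and 685 CPM with lipoic acid, against 436, 443 and 454 CPM in untreated cells (1.57-fold, adjusted p = 1.69e-05), and PRKCA, a protein kinase C, rose by 0.94 (adjusted p = 0.000166). Transcript levels do not measure the activity of the kinases.

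**Figure D4:**
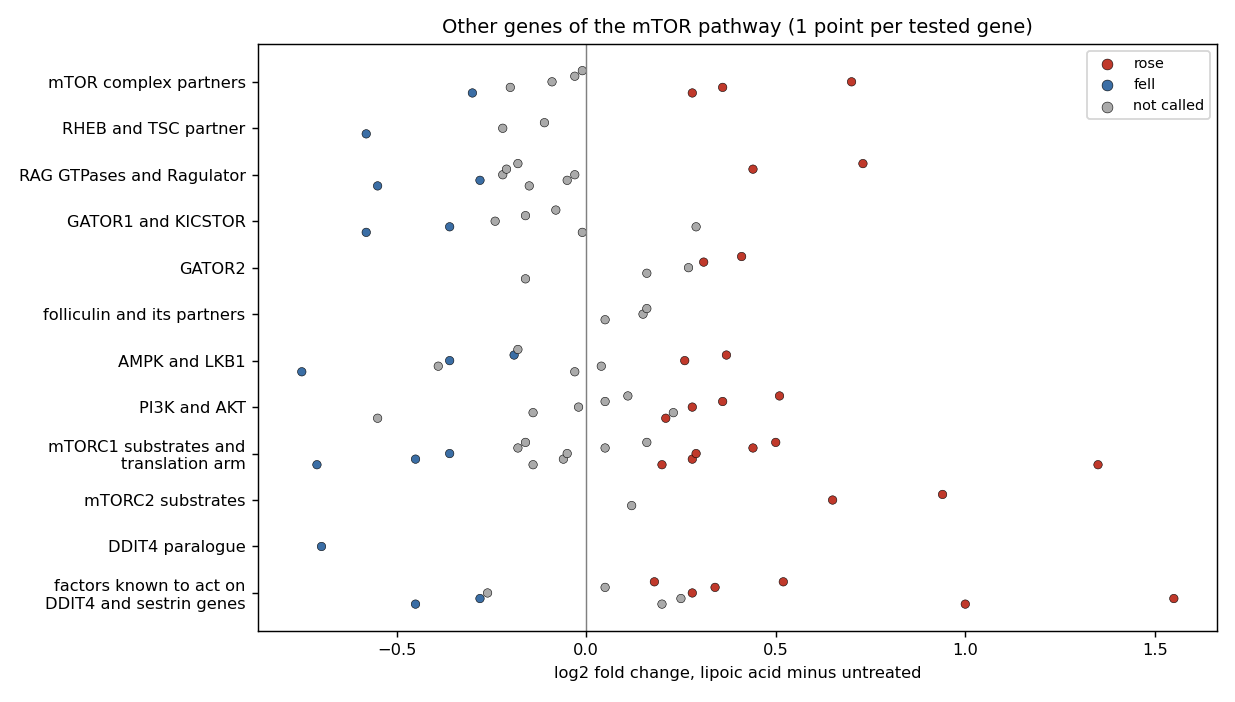
Log2 fold change, lipoic acid minus untreated (horizontal axis), of each tested gene in the other mTOR pathway lists and in the list of factors known to act on DDIT4 and the sestrins (rows). Red points rose, blue points fell and grey points were not called. LPIN1 at 1.35 is the largest change among the pathway lists and DDIT3 at 1.55 the largest among the factors.

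Transcription factors known to act on DDIT4 or the sestrin genes were also read from these counts. Of 12 tested factors 6 rose (50%), 2 fell (16.7%) and 4 did not pass, beside 24.2% rises and 23.3% falls over all tested genes. ATF4, the main factor of the integrated stress response, had 881, 883 and 858 CPM with lipoic acid, against 451, 434 and 429 CPM in untreated cells (log2 fold change 1.00, adjusted p = 4.18e-07), and DDIT3, which encodes CHOP, rose 2.93-fold (adjusted p = 2.15e-06), with genes on the other strand over 31.6% of its exonic length. HIF1A, the oxygen-regulated factor, rose (0.52, adjusted p = 7.5e-05) and its relative EPAS1 fell (-0.45, adjusted p = 8.32e-05). ARNT, the partner of both, was called lower (-0.28, adjusted p = 0.0397), a call lost without any lipoic acid replicate or untreated replicates 1 or 3 (0.0602 to 0.159). It was also lost in the 4 even-count libraries (-0.23, adjusted p = 0.17), with DESeq2 (adjusted p = 0.0692) and with no filter on low counts (adjusted p = 0.0518).

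The tested genes with the most similar pattern to DDIT4 over the 6 libraries, by Euclidean distance of centred log2(CPM + 1), were PARP16 (distance 0.144), CDK20 (0.17), NR2F2 (0.175), AIFM2 (0.21) and KLHL23 (0.217). PARP16 averaged 20.7 ± 1.38 CPM with lipoic acid and 8.61 ± 0.23 CPM in untreated cells (SD, n = 3 each). For SESN2 they were MYLK (0.0502), OSBPL2 (0.0521), FAM13B (0.067), POLR2B (0.0869) and TTC23 (0.0964), of which MYLK averaged 62.6 ± 0.767 CPM with lipoic acid and 38.7 ± 3.69 CPM in untreated cells. With 2 groups of 3 libraries, this measure mainly ranks genes by a like difference between the groups.

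**Figure D5:**
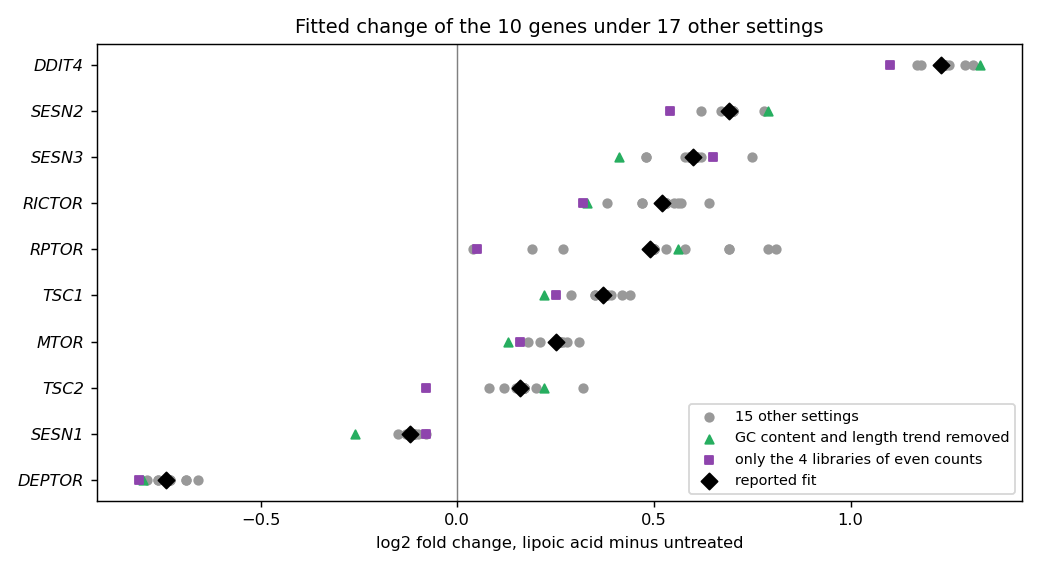
Fitted log2 fold change, lipoic acid minus untreated (horizontal axis), of each of the 10 genes in the reported fit (black diamonds) and under 17 other settings (16 for RPTOR), with the GC content and length correction (green) and the 4 libraries of even counts (purple) marked. DDIT4 stays between 1.10 and 1.33 and DEPTOR between -0.81 and -0.66, while TSC2 spans -0.08 to 0.32 and RPTOR 0.04 to 0.81.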

How the data were processed

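The authors deposited raw counts per gene symbol, and per the submitters' processing notes the tools were HISAT2, featureCounts and DESeq2 and the build hg38. Their versions, the annotation and the strand setting are not given in the sources used here. The table has 6 count columns, all used. Counts were tested in R 4.3.3 with edgeR 4.0.16: filterByExpr by group (13780 genes kept), TMM scaling and the quasi-likelihood F test on group alone, adjusted by Benjamini-Hochberg over all tested genes. Standard errors were derived from the F statistics. Positions, lengths and overlaps came from GENCODE v29 (GRCh38), and promoters from RefSeq. The script was tested on simulated data. There it called, in the right direction, 22% of genes with a simulated absolute log2 fold change of 0.5. For those with 1 the share was 81.8%. The simulation changed 200 genes and gave all genes the same dispersion, whereas 47.4% of the tested genes were called in the real data. These shares therefore do not measure how many real changes of a given size the reported fit would call. PCR-amplified counts without molecular barcodes are not independent molecules.

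The members, lists, tests and settings were chosen with earlier results of these data known. Other settings were upper-quartile or relative log expression scaling, no filter, a minimum of 1 CPM throughout a group, DESeq2 1.42.0, limma 3.58.1 voom with quality weights, the replicate block, omission of each library, halved even counts, the 4 libraries of even counts alone, removal of mitochondrial genes, and removal of a spline trend on GC content and exonic length from each library. Named genes were the 10 members, up to 4 called genes of each list with the lowest p and 10 genes fixed by name, and the 5 genes most like DDIT4 and SESN2 with a mean of at least 5 CPM. TFEB, EIF4E, PRKAA1, ARNT, FLCN (folliculin), FNIP1, FNIP2, TRIB3, GDF15, CHAC1, CDKN1A, MDM2, ADM, TSC22D3 and FKBP5 and the untested or zero-count genes fell outside this rule and were chosen after their values were seen. A few genes that the rule names are not reported here.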

Additional observations from a re-analysis of the deposited data

How the results depend on the processing

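Over 17 other settings, DDIT4, SESN2, SESN3, DEPTOR and RICTOR kept their direction and call. In the 4 libraries of even counts TSC1 (log2 fold change 0.25) and MTOR (0.16) were no longer called, TSC2 (-0.08) and RHEB (0.09, not called) turned in direction, the log2 ratio of SESN2 to SESN1 differed by 0.62 between groups and that of RICTOR to RPTOR by 0.33, opposite in sign to the -0.27 of all libraries. After removal of the trend on GC content and length, SESN1 joined DEPTOR among the members called lower (2 in all, SESN1 at -0.26). There MTOR (0.13) lost its call and MLST8 (0.02, not called) turned. This removal also moved the median log2 fold change over all tested genes from -0.01 to -0.09. Over all genes, 2621 rose and 3741 fell there, against 3329 and 3205 in the reported fit. CHAC1, not called, turned in direction in the 4 libraries of even counts (0.01), after that removal (0.08) and without untreated replicate 2 (0.00), its range on omission of 1 library being -0.21 to 0.00. The cause of these shifts was not tested. On omission of 1 library each, MTOR ran from 0.18 to 0.31, TSC2 from 0.08 to 0.32 and the RICTOR to RPTOR ratio from -0.64 to 0.40. RPTOR had too few counts for the filter of 1 CPM in all libraries of a group.

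Same-numbered libraries deviated together only weakly (correlations 0.117, 0.098 and 0.114), although each library correlated best with its own number, and the labels do not say that a number marks a shared culture. With the replicate number as a block, 3354 genes rose and 3203 fell, and 6 members rose and 1 fell, as without it. Counts of calls over all genes, over members that rose and over other pathway genes stayed within 1.5 times in all settings run. Of the members, RPTOR had the lowest counts, and what limits the others was not tested.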

Other observations

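Genes known as targets of the factors that act on DDIT4 and the sestrins were mixed. Of 12 tested, 6 rose with lipoic acid (50%), 1 fell (8.33%) and 5 were not called, beside 24.2% rises and 23.3% falls over all tested genes. Their median log2 fold change was 0.17, against -0.01 over all tested genes. ASNS, asparagine synthetase and an ATF4 target, had 246, 260 and 245 CPM with lipoic acid, against 62.1, 59.8 and 62.1 CPM in untreated cells (4.08-fold, edgeR adjusted p = 1.89e-08), though another gene on the same strand covers 44.6% of its exonic length. GDF15, TRIB3 and CHAC1, also known to respond to ATF4 or CHOP, differed less than ASNS. DDIT3, counted above among the factors, rose 2.93-fold. GDF15 rose 1.26-fold (adjusted p = 0.0135) and TRIB3 1.14-fold (adjusted p = 0.0263), the TRIB3 call being lost without lipoic acid replicates 1 or 2 or untreated replicate 3 (0.076 to 0.0891) and in the 4 even-count libraries (log2 fold change 0.15, adjusted p = 0.105). CHAC1 had 72.6, 58.1 and 65.2 CPM with lipoic acid, against 64.9, 84.6 and 65.7 CPM in untreated cells, and did not pass (log2 fold change -0.13, adjusted p = 0.358). The NRF2 targets TXNRD1 (3.42-fold, adjusted p = 7.81e-08) and NQO1 (2.60-fold, adjusted p = 2.27e-06) rose, as did VEGFA, a growth factor and HIF target (2.05-fold, adjusted p = 0.000582). CDKN1A, a cell cycle inhibitor (760, 738 and 718 CPM with lipoic acid, against 721, 628 and 632 CPM in untreated cells, adjusted p = 0.0552) and MDM2, a ubiquitin ligase (adjusted p = 0.384), did not pass, and neither did ADM, another HIF target (adjusted p = 0.689). Of the glucocorticoid receptor targets, FKBP5 was called lower (log2 fold change -0.35, adjusted p = 0.0241), a call lost without lipoic acid replicates 1 or 3 (0.087 to 0.101) and in the 4 even-count libraries (-0.13, adjusted p = 0.319), and TSC22D3 did not pass (adjusted p = 0.105).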
